A study of Mus musculus with 4 samples.

Results

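Ribosome biogenesis genes encode the proteins that transcribe, modify, cleave and fold ribosomal RNA and join it with ribosomal proteins into the small and large subunits. The set held 44 genes, found by their symbols among the 23282 rows of the lung tables. The set was chosen by known gene functions and not by a threshold on values, but with earlier results of these data known. It comprised the transcription factor Myc, 10 genes of RNA polymerase I and its nucleolar partners, 3 core proteins of box C/D and 4 of box H/ACA small nucleolar ribonucleoproteins (snoRNPs), 15 genes of the small subunit processome and small subunit maturation, and 11 genes of large subunit assembly. All 44 passed a filter on low values, a mean normalized read count of at least 4 over the 4 libraries, as did 15164 rows in total. Of these 44, 43 had at least 4 normalized reads in every library. The exception was Myc in E(+)T(-).

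The lungs came from male CDF1 mice, a hybrid strain, in 4 groups with 1 sequencing library each. The normal control group E(-)T(-) neither exercised nor carried a tumor, the normal exercise group E(+)T(-) ran on a treadmill at high intensity, the cancer control group E(-)T(+) received CT26 cells and rested, and the cancer exercise group E(+)T(+) received CT26 cells and exercised. CT26 is a murine colorectal carcinoma line, given here through the tail vein, a route that carries injected cells to the lung. The labels give postnatal day 28 and 10 mice for each group, while the study names a similar age as that at purchase, and for muscle it names a representative mouse per group and calls the work on lung similar. Whether each lung library also came from 1 mouse is not stated outright. With 1 library per group no difference below has a replicate check, no test between groups was possible, and every value compares libraries.

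Ribosome production starts in the nucleolus, where RNA polymerase I transcribes a long precursor. Small nucleolar RNAs in complex with fibrillarin or dyskerin guide the methylation and pseudouridylation of that precursor, the processome cuts it, and separate assembly factors build each subunit before export to the cytoplasm. Growing and dividing cells make many ribosomes, and the nucleoli of carcinoma cells are often enlarged. Myc, a basic helix-loop-helix factor that binds the E-box CACGTG with its partner Max, is known to drive many of these genes. In adult lung most cells divide rarely.

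Reads assigned to rows numbered 9354517 in E(-)T(+) and between 12780445 and 13368058 in the other 3 libraries. The scaling factors implied by the deposited values were 1.09, 1.02, 1.17 and 0.768 for the control, exercise, tumor, and tumor with exercise libraries, the order used for every list of 4 values below. Hemoglobin genes took 14.3%, 14.2%, 1.43% and 31.4% of the reads. The E(-)T(+) library stood apart by its low and the E(+)T(+) library by its high hemoglobin share, the latter also by its neutrophil markers. With 1 library per group neither can be left out, and the main results that rest on E(+)T(+) are given below with a second scaling, by library totals alone. The lung markers checked, 14 genes of alveolar and airway epithelium and endothelium, had reads in all 4 libraries.

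Promoter windows from RefSeq (GRCm38.p6) were used for 37 of the 44 genes, with 40 windows in all. They ran from 250 bases before to 50 bases after the transcription start. Each window was searched on both strands for 4 short motifs. The E-box letters CACGTG stood in 6 of the 40 windows (15.0%) against 7.15% of all 32851 windows of this length. The palindrome TCGCGA stood in 4 (10.0%) against 2.5% of all windows. The letters GGGCGG, the core of a GC box, stood in 27 (67.5%) against 35.7%, and the letters CCAAT in 14 (35.0%) against 37.4%. None of the 4 motifs contains another. A match describes letters and not a bound site, and no binding was measured. The 6 windows with an E-box belong to Imp4, Nop2, Utp20, Pes1, Mybbp1a and Wdr43, and are shown because the E-box is the motif of the Myc protein, whose own transcript differed most between the libraries below. Each run is 30 bases of the gene's strand, 5′ to 3′, with the E-box in capitals.
Imp4, chr1:34439696-34439725, plus strand: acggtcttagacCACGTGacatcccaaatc
Nop2, chr6:125131811-125131840, plus strand: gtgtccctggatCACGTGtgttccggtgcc
Utp20, chr10:88826765-88826794, minus strand: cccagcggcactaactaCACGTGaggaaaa
Pes1, chr11:3963965-3963994, plus strand: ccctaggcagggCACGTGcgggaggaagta
Mybbp1a, chr11:72441347-72441376, plus strand: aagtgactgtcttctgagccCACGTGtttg
Wdr43, chr17:71616220-71616249, plus strand: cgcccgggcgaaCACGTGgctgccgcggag
The windows with the other palindrome are shown for Nop58, which had the largest difference but Myc in tumor lung. They are also shown for Nop14, whose window held the palindrome at 2 places, and for Polr1c, which hardly differed among the libraries on the deposited scale. The capitals mark TCGCGA.
Nop58, chr1:59684844-59684873, plus strand: aaaaaaaaagtcTCGCGAtattttaaggcc
Nop14, upstream match, chr5:34660164-34660193, minus strand: cttgtgtacttcTCGCGAaatacgggaagc
Nop14, second match, chr5:34660135-34660164, minus strand: ctgacgcactcaTCGCGAgacgaagctggg
Polr1c, chr17:46248032-46248061, minus strand: cggggcaagatcTCGCGAcattcaagattg
Between tumor-bearing and tumor-free resting lung, the genes with an E-box window differed by between 0.97 (Imp4) and 2.52 (Mybbp1a) on the log2 scale. The others were Utp20 at 1.17, Pes1 at 1.20, Nop2 at 1.27 and Wdr43 at 1.49. The median of all 44 genes was 1.28, and a link of these values to Myc was not tested. The 3 genes shown with TCGCGA ran from -0.03 (Polr1c) to 2.60 (Nop58). The other gene with TCGCGA was Mybbp1a (2.52), whose window also held the E-box.

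Ribosome biogenesis transcripts were most abundant in the lung of resting tumor-bearing mice. The 44 genes together held 24631 of 13017385 reads in E(-)T(-), or 0.189% (95% Wilson interval 0.187 to 0.192, which covers counting error only). The share was 0.225% (28779 reads, 0.223 to 0.228) with exercise alone and 0.652% (61025 reads, 0.647 to 0.658) with tumor alone. With both it was 0.221% (29505 reads, 0.218 to 0.223). The share in E(-)T(+) was thus far above those in the other 3 libraries, which lay close together as shares of all reads. Hemoglobin genes took 14.3%, 14.2%, 1.43% and 31.4% of those reads, which lowers the member share most in E(+)T(+). Of the 61025 reads in E(-)T(+), Ncl had 21043 and Npm1 8434. On the deposited scale, log2(normalized read count + 1), the median level of the 44 genes was 7.78, 7.99, 9.61 and 8.42. E(-)T(+) was the highest library for 40 of the 44 genes (90.9%), against 35.5% of all filtered rows, and E(-)T(-) was the lowest for 27 (61.4%), against 22.1%. For 28 genes (63.6%, against 18.7% of all rows) E(-)T(+) was highest and E(+)T(+) second, above both tumor-free libraries. Under scaling by library totals alone, 42 genes (95.5%, against 44.4%) were highest in E(-)T(+) and 19 (43.2%, against 12.5%) had the second pattern. With the deposited values the 4 genes not highest in E(-)T(+) were Nop10, Bysl, Heatr1 and Polr1c.

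**Figure D1:**
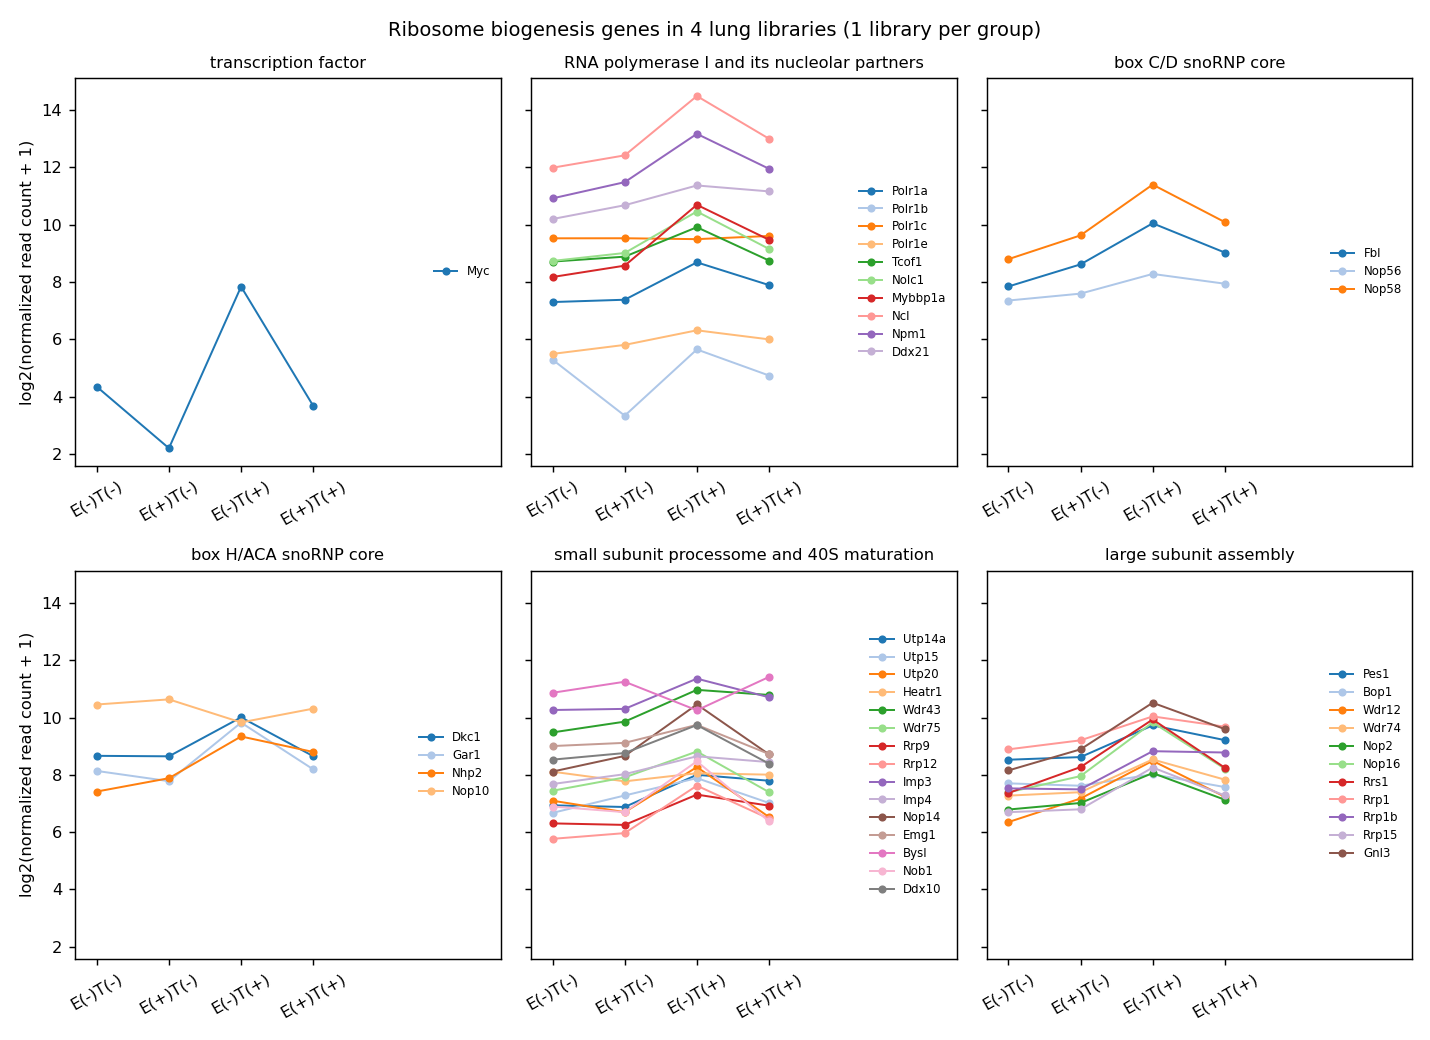
Deposited log2(normalized read count + 1) of each of the 44 genes (vertical axis) in the 4 lung libraries (horizontal axis), in 6 panels by role, with 1 point per library and lines that only join the points of a gene. Most genes peak in E(-)T(+), where Ncl reaches 14.49 and Myc 7.84, while Nop10 and Bysl are lowest there and Polr1c is nearly flat.

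The first question was how the lung of resting mice differed with and without tumor. In this tumor effect without exercise, E(-)T(+) minus E(-)T(-), 34 of the 44 genes were at least 2-fold higher in the tumor-bearing lung, against 20.6% of all filtered rows, and 0 were at least 2-fold lower, against 25.7% of all rows. The median difference of the 44 genes was 1.28 on the log2 scale with quartiles of 1.05 and 1.98, while the median of all rows was -0.03. The difference was above 0 for 40 genes and below 0 for 4, and 11 genes were at least 4-fold higher, against 8.65% of all rows. Rrp9 (1.0) lay just inside the 2-fold limit and Imp4 (0.97) just outside it. Counts by role below stand beside the same 20.6% of all rows. Differences of single genes below carry a 95% exact interval of the read ratio, which covers counting error only, since reads without molecular identifiers are not independent molecules.

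Myc lies on chromosome 15 (GRCm38, 61985391 to 61990374, plus strand). Its log2 levels were 4.35, 2.21, 7.84 and 3.68, from 23, 4, 209 and 10 reads. E(-)T(+) was far above the other 3 libraries and E(+)T(-) was the lowest. The tumor effect without exercise was 3.49 (2.93 to 4.24), 11.2-fold on the scale of the normalized count + 1 and the largest among the 44 genes. The exercise effect with tumor, E(+)T(+) minus E(-)T(+), was -4.16 (-5.37 to -3.38), again the largest in size. For the exercise effect without tumor, E(+)T(-) minus E(-)T(-), the value was -2.15 (-4.40 to -0.86). For the effect of tumor in exercised mice, E(+)T(+) minus E(+)T(-), it was 1.48 (-0.12 to 3.80). These values rest on 4 reads in E(+)T(-), close to the floor of 3 reads set here, and the last interval included 0. With the small share of the E(-)T(+) level described below taken out of E(+)T(-), they were -4.03 and 3.36.

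Of the 10 genes of RNA polymerase I and its nucleolar partners, 7 were at least 2-fold higher in E(-)T(+) than in E(-)T(-), with a median of 1.29. Ncl encodes nucleolin, an abundant nucleolar RNA-binding protein that opens chromatin of the ribosomal RNA genes (chromosome 1, 86344719 to 86359400, minus strand). Its levels were 11.99, 12.42, 14.49 and 13.00 from 4792, 5977, 21043 and 7021 reads, so that both tumor-bearing libraries were above both tumor-free ones. The tumor effect was 2.50 (2.46 to 2.55) without exercise and 0.58 (0.53 to 0.63) with exercise. Tumor effects with exercise in this and the following paragraphs are on the deposited scale, and each is lower by about 0.41 under library totals alone, which left 0.17 for Ncl. Npm1, which encodes the nucleolar chaperone nucleophosmin (chromosome 11, 33152287 to 33163206, minus strand), stood at 10.92, 11.49, 13.17 and 11.96 from 2284, 3126, 8434 and 3395 reads. The order of the libraries was that of Ncl, with a tumor effect of 2.25 (2.18 to 2.32) without and 0.47 (0.40 to 0.54) with exercise.

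Mybbp1a, a nucleolar protein that binds Myb and takes part in ribosomal RNA processing, had levels of 8.18, 8.57, 10.70 and 9.48 from 340, 414, 1514 and 609 reads. The tumor effect was 2.52 (2.35 to 2.70) without and 0.90 (0.72 to 1.09) with exercise. The last bases of Mybbp1a overlap Spns2 on the other strand by 131 exonic bases, and Spns2 was lower in E(-)T(+) by 0.64 on the log2 scale, the opposite direction. Among the other partners, Nolc1, a scaffold of the snoRNPs, differed by 1.72, the polymerase subunit Polr1a by 1.39, Tcof1, the treacle protein that recruits the polymerase, by 1.20, and the helicase Ddx21 by 1.17. The polymerase subunit Polr1e differed by 0.82.

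Polr1c and Polr1b, both subunits of RNA polymerase I, had smaller tumor effects in resting mice. Polr1c is a subunit that RNA polymerase III uses as well. Its levels were 9.53, 9.53, 9.50 and 9.61 from 868, 804, 660 and 668 reads, and the tumor effect was -0.03 (-0.18 to 0.12) without and 0.08 (-0.07 to 0.23) with exercise. Polr1b, the second largest subunit of the enzyme, stood at 5.30, 3.34, 5.65 and 4.74 from 45, 10, 45 and 22 reads. E(+)T(-) was low and the other 3 libraries lay closer together, with a tumor effect of 0.36 (-0.26 to 1.0) without exercise and 1.40 (0.35 to 2.73) with exercise.

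**Figure D2:**
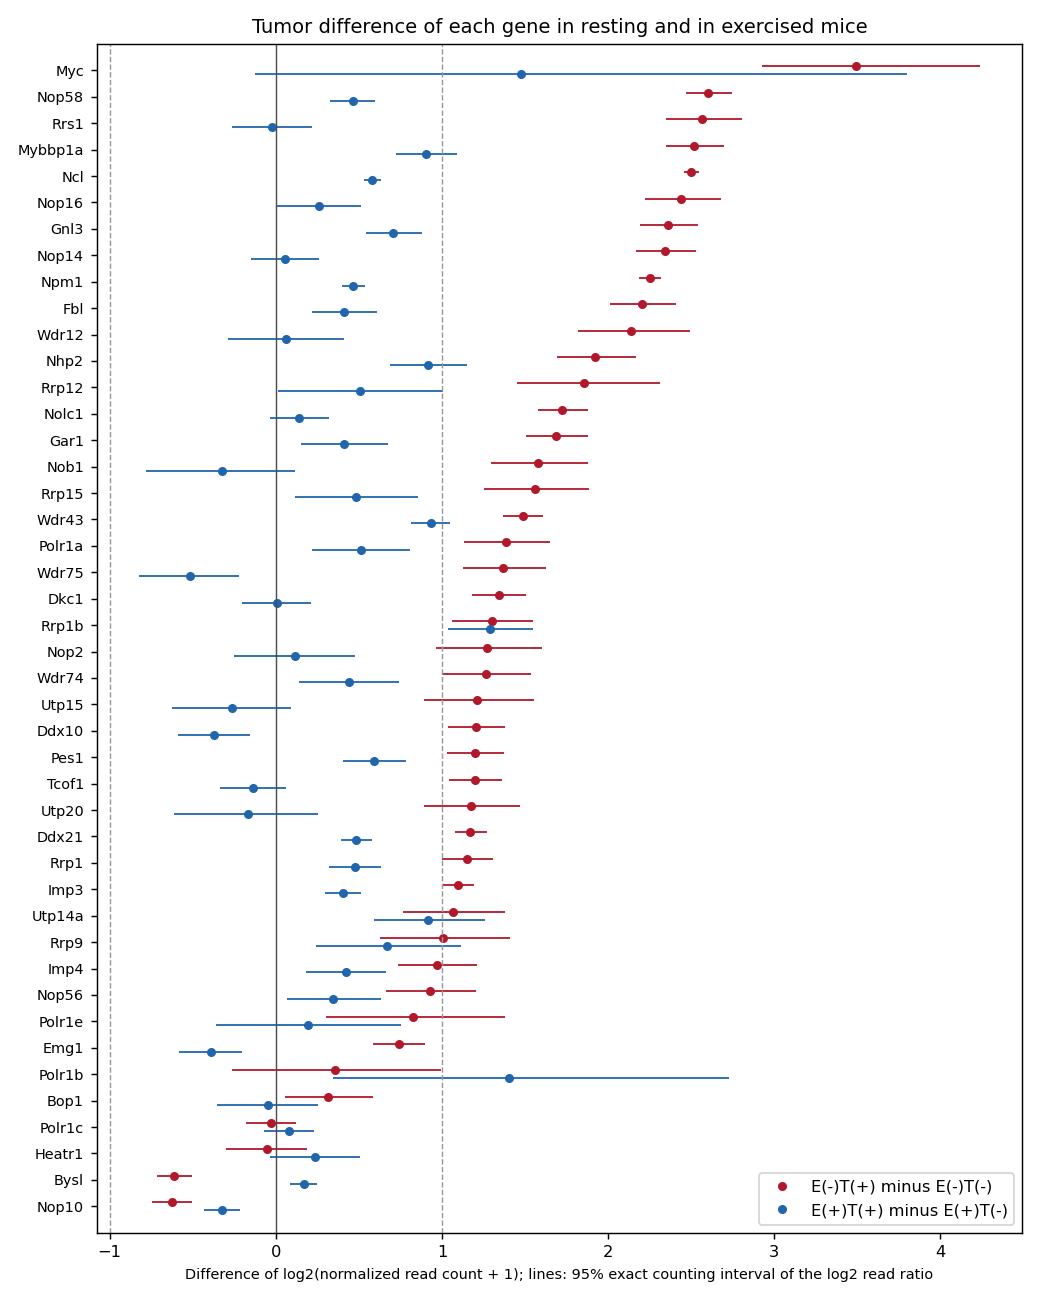
Tumor difference of each gene in log2(normalized read count + 1) (horizontal axis), in resting mice (red, E(-)T(+) minus E(-)T(-)) and in exercised mice (blue, E(+)T(+) minus E(+)T(-)), with genes on the vertical axis in the order of the first. Lines are 95% exact counting intervals, and dashed lines mark 2-fold, which 34 genes pass in resting and 3 in exercised mice. With libraries scaled by their totals alone the blue points move down, and their median from 0.41 to -0.003.

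The 3 core proteins of box C/D snoRNPs had a median tumor effect of 2.20 without exercise. Nop58 (chromosome 1, 59684971 to 59719044, plus strand) had levels of 8.80, 9.63, 11.40 and 10.09 from 524, 862, 2471 and 934 reads. E(-)T(-) was lowest and E(-)T(+) highest, with a tumor effect of 2.60 (2.47 to 2.74) without and 0.46 (0.33 to 0.60) with exercise. Fbl encodes fibrillarin, the methyltransferase of the complex, and stood at 7.85, 8.62, 10.05 and 9.03 from 270, 427, 969 and 447 reads. Its order was the same, and its tumor effect was 2.20 (2.01 to 2.41) without and 0.41 (0.22 to 0.61) with exercise, the latter 0.001 under library totals alone. Nop56, the other scaffold of the complex, differed by 0.93 without exercise.

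Of the 4 box H/ACA core proteins, 3 were at least 2-fold higher in E(-)T(+) than in E(-)T(-), and the fourth was lower. Dkc1 encodes dyskerin, the pseudouridine synthase, which is also part of telomerase. Its levels were 8.66, 8.65, 10.01 and 8.65 from 476, 435, 937 and 343 reads. E(-)T(+) was high and the other 3 libraries lay close together, with a tumor effect of 1.34 (1.18 to 1.51) without and 0.00 (-0.20 to 0.21) with exercise. Nhp2 and Gar1, the other higher members, differed by 1.92 and 1.69. Nop10, the smallest protein of the complex (chromosome 2, 112261926 to 112263269, plus strand), had levels of 10.45, 10.63, 9.83 and 10.31 from 1650, 1728, 829 and 1085 reads. On the deposited scale E(-)T(+) was the lowest library, with a tumor effect of -0.62 (-0.75 to -0.50) without exercise and -0.32 (-0.43 to -0.21) with exercise. Under library totals alone E(+)T(+) was the lowest, with an exercise effect with tumor of -0.13. No exon of another gene overlaps the last 500 exonic bases of Nop10 in GENCODE M21.

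Of the 15 genes of the small subunit processome and small subunit maturation, 11 were at least 2-fold higher in E(-)T(+) than in E(-)T(-), and the median was 1.17. Nop14, a processome component, differed most at 2.34, followed by Rrp12, an export and maturation factor, at 1.86 and Nob1, the endonuclease that makes the final cut of the small subunit RNA, at 1.58. Imp3, a subunit of the Mpp10 complex of the processome, had levels of 10.26, 10.30, 11.36 and 10.71 from 1444, 1372, 2391 and 1428 reads. The tumor effect was 1.09 (1.0 to 1.19) without exercise. With exercise it was 0.40 (0.30 to 0.51), or -0.01 under library totals alone, so that the place of E(+)T(+) above the tumor-free libraries rests on the scaling. The remaining processome genes past 2-fold were Wdr43, Wdr75, Utp15, Ddx10, Utp20, Utp14a and Rrp9, between 1.0 and 1.49. Imp4 (0.97) and the methyltransferase Emg1 (0.74) were higher but not past the limit.

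Bysl and Heatr1 stood apart from this group. Bysl encodes bystin, a factor of late small subunit maturation (chromosome 17, 47599331 to 47611492, minus strand). Its levels were 10.86, 11.25, 10.25 and 11.42 from 2191, 2646, 1112 and 2336 reads. On the deposited scale E(-)T(+) was thus the lowest and E(+)T(+) the highest library. The tumor effect without exercise was -0.61 (-0.72 to -0.51), and the exercise effect with tumor was 1.16 (1.06 to 1.27), the only one of the 44 genes past 2-fold in that direction. Of the last 500 exonic bases of Bysl, 361 overlap exons of Ccnd3, a cyclin gene on the other strand. The Ccnd3 levels were 10.77, 11.14, 9.96 and 11.36, close to those of Bysl in every library and in the same order. Whether the authors counted reads by strand is not given in the sources used here, and reads of the 2 genes may therefore be shared. Heatr1, a processome protein that also acts on RNA polymerase I, had levels of 8.11, 7.77, 8.06 and 8.01 from 324, 237, 242 and 219 reads. On the deposited scale the 4 libraries lay close together, and the tumor effect was -0.05 (-0.30 to 0.19) without exercise. Under library totals alone the exercise effect with tumor was -0.66 for Heatr1. Its end overlaps Lgals8 by 155 exonic bases, and Lgals8 levels were 9.63, 9.58, 9.68 and 9.44.

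**Figure D3:**
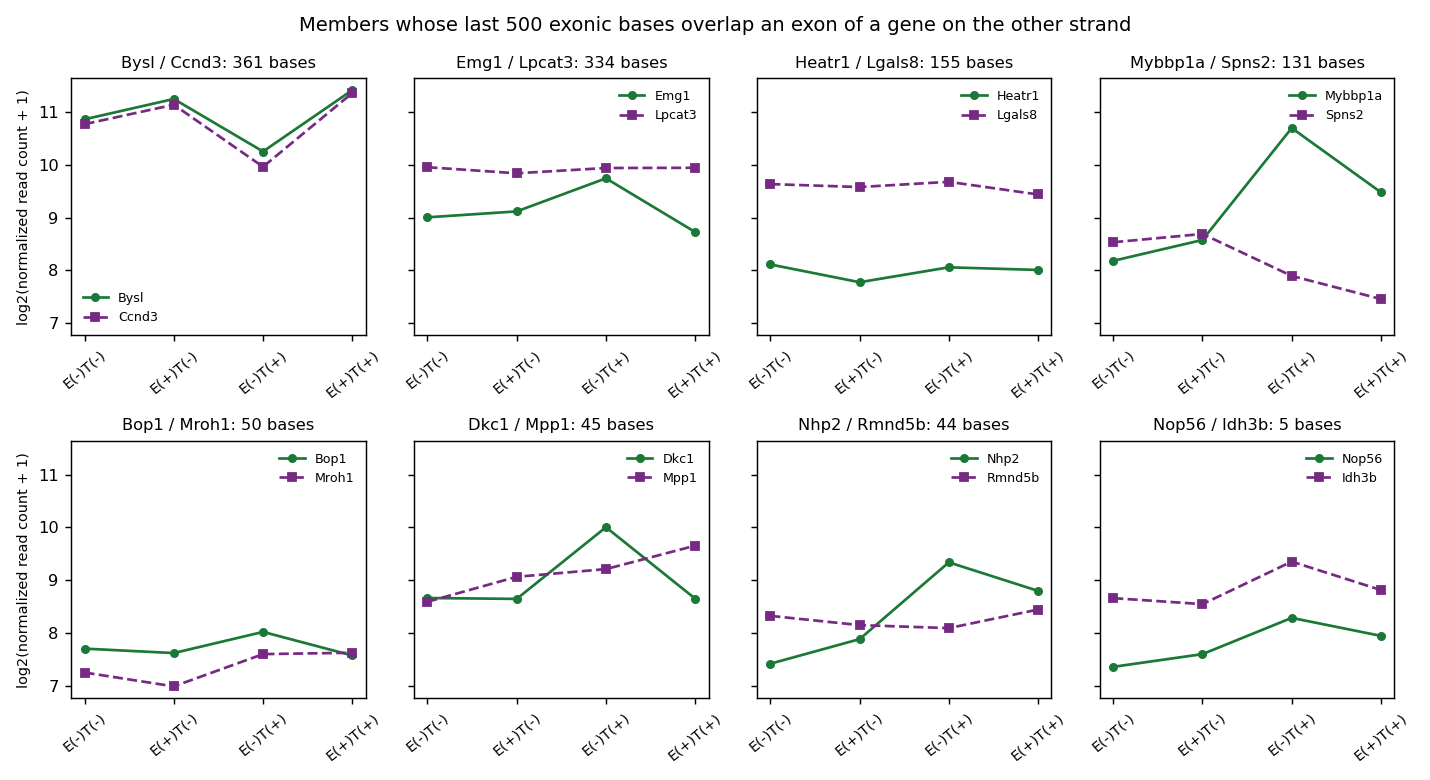
Deposited log2(normalized read count + 1) (vertical axis) in the 4 lung libraries (horizontal axis) for the 8 genes whose last 500 exonic bases overlap an exon of a gene on the other strand (green, solid), each with that gene (purple, dashed) and the bases of overlap. Bysl and Ccnd3 run nearly together through all 4 libraries. Mybbp1a and Spns2 part in both tumor-bearing libraries, at 10.70 and 7.89 in E(-)T(+) and at 9.48 and 7.45 in E(+)T(+).

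Overlaps of this kind were found for 8 of the 44 genes, namely Bysl, Emg1, Heatr1, Mybbp1a, Bop1, Dkc1, Nhp2 and Nop56. The overlap was 334 bases for Emg1 with Lpcat3, whose levels ran from 9.84 to 9.95, and 50 bases for Bop1 with Mroh1. It was 45 bases or less for Dkc1, Nhp2 and Nop56. Without these 8 genes, 31 of 36 were at least 2-fold higher in the tumor effect without exercise.

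All 11 genes of large subunit assembly had a tumor effect above 0 without exercise, and 10 of them were past 2-fold, with a median of 1.30. Rrs1, which brings the 5S ribonucleoprotein to the early subunit (chromosome 1, 9545408 to 9547455, plus strand), had levels of 7.36, 8.27, 9.93 and 8.25 from 193, 335, 890 and 259 reads. The tumor effect was 2.57 (2.35 to 2.80) without exercise and -0.02 (-0.26 to 0.22) with exercise, where it was -0.43 under library totals alone. Gnl3 encodes nucleostemin, a nucleolar GTPase abundant in stem and tumor cells. It stood at 8.15, 8.89, 10.52 and 9.60 from 334, 515, 1335 and 661 reads, and its tumor effect was 2.36 (2.19 to 2.54) without and 0.71 (0.54 to 0.88) with exercise. Rrp1, a nucleolar protein of early large subunit processing, had levels of 8.89, 9.20, 10.04 and 9.68 from 557, 641, 959 and 701 reads. Its order was that of Gnl3, and its tumor effect of 1.15 (1.0 to 1.30) without exercise was smaller.

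Nop16 (2.44) and Wdr12 (2.14) were the other large subunit genes past 4-fold. Wdr12 forms the PeBoW complex with Pes1 and Bop1, which differed by 1.20 and 0.32. Bop1 was the one large subunit gene under 2-fold. The rest, Rrp15, Rrp1b, the methyltransferase Nop2 and Wdr74, differed by 1.56, 1.30, 1.27 and 1.26.

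The second question was how exercise differed from rest in tumor-bearing mice. In the exercise effect with tumor, 20 of the 44 genes were at least 2-fold lower in E(+)T(+) than in E(-)T(+), against 17.7% of all rows, and 1, Bysl, was at least 2-fold higher, against 24.3%. The median was -0.93 while that of all rows was 0.01, and 41 genes were below 0 and 3 above it. The 3 above 0 were Bysl, Nop10 at 0.48 (0.35 to 0.61) and Polr1c at 0.11 (-0.05 to 0.27). After Myc the largest differences were those of Nob1 (-2.10), Nop14 (-1.74), Utp20 (-1.74), Rrs1 (-1.68), Gar1 (-1.63) and Nop16 (-1.61). Ncl differed by -1.49 (-1.53 to -1.45), Dkc1 by -1.35 (-1.54 to -1.18), Nop58 by -1.31 (-1.42 to -1.20), Npm1 by -1.22 (-1.28 to -1.16) and Fbl by -1.02 (-1.19 to -0.86). At the other end, on the deposited scale, Heatr1 (-0.05), Rrp1b (-0.05), Wdr43 (-0.18), Imp4 (-0.20), Ddx21 (-0.21) and Utp14a (-0.21) were close to their level in E(-)T(+). Under scaling by library totals alone these genes lay between -0.653 (Rrp1b) and -0.815 (Ddx21).

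By role, the medians of the exercise effect with tumor were -1.04 for RNA polymerase I and its partners, -1.02 for box C/D proteins, -0.95 for box H/ACA proteins, -0.87 for the small subunit genes and -0.92 for the large subunit genes. Genes past 2-fold were 5 of 10, 2 of 3, 2 of 4, 7 of 15 and 3 of 11 in the lower direction, against 17.7% of all rows. The last count was not far from that share. This comparison moved with the scaling. Under scaling by library totals alone, the median was -1.53 for the 44 genes and -0.59 for all rows, and 31 of the 44 were at least 2-fold lower, against 35.4% of all rows. Nop10 then stood at -0.13 and Polr1c at -0.50, and Bysl was above 0 at 0.56.

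**Figure D4:**
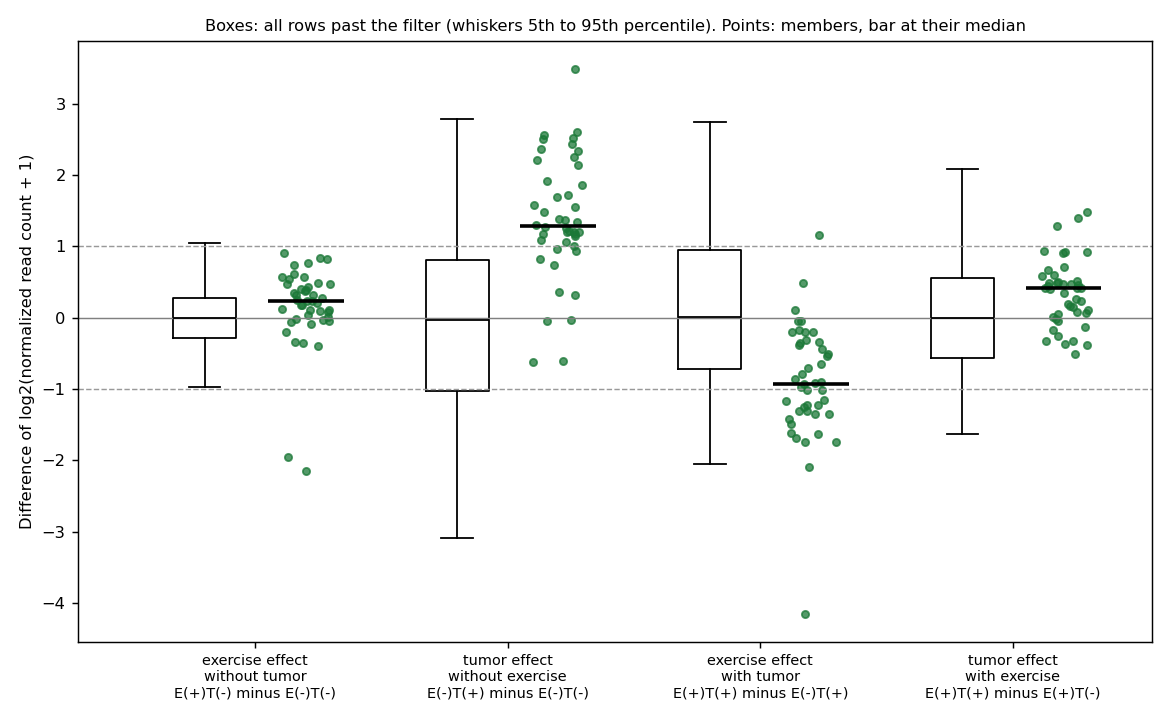
Differences of log2(normalized read count + 1) (vertical axis) in the 4 comparisons (horizontal axis). Boxes give quartiles and median of the 15164 filtered rows with whiskers from the 5th to the 95th percentile, green points are the 44 genes with a bar at their median, and dashed lines mark 2-fold. The medians of the 44 genes are 0.23, 1.28, -0.93 and 0.41, and with libraries scaled by their totals alone the last becomes -0.003.

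The third question was whether tumor-bearing and tumor-free lungs differed in exercised mice. In the tumor effect with exercise, 3 of the 44 genes were at least 2-fold higher in E(+)T(+) than in E(+)T(-), against 14.9% of all rows, and 0 were at least 2-fold lower, against 13.0%. The 3 were Myc, Polr1b and Rrp1b, a nucleolar relative of Rrp1, at 1.29. Under library totals alone Myc stood at 1.07 and stayed past 2-fold, while Polr1b (0.998) and Rrp1b (0.88) did not. The interval lay above 0 for 25 genes, against 32.0% of all rows, and below 0 for 4, against 32.4%. The 4 were Wdr75 (-0.52), Emg1 (-0.39), Ddx10 (-0.37) and Nop10. The median of the 44 genes was 0.41 with 34 above and 10 below 0, but with libraries scaled by their totals alone it was -0.003 with 22 above and 22 below, and the median of all rows was then -0.41. The 44 genes lay above all rows by a similar amount under either scaling, and the side of 0 on which their median fell was set by the scaling. A further scaling used totals without hemoglobin and Rn45s, the ribosomal RNA precursor entry. It changed the sign of 3 of the 44 genes, and the median of all rows was then -0.08.

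The signed tumor effect was lower with than without exercise for 39 of the 44 genes (88.6%), against 49.5% of all rows, and the median of this difference was -1.14. Under library totals alone it was lower for 42 (95.5%), against 64.0% of all rows. With the deposited values the 5 exceptions were Polr1b, Bysl, Nop10, Heatr1 and Polr1c. Of these, Nop10 (-0.62 and -0.32) and Bysl (-0.61 and 0.17, without and with exercise) had a smaller effect in size with exercise. Across the 44 genes the tumor effects with and without exercise, which share no library, had a Pearson r of 0.30 and a Spearman rho of 0.25 (n = 44, against 0.45 and 0.43 across all rows). Genes are not independent replicates, and these values only describe the libraries. Rrp1b (1.30 and 1.29) and Utp14a (1.07 and 0.92) had similar tumor effects without and with exercise on the deposited scale, but not under library totals alone (1.41 and 0.88, 1.18 and 0.51). On the deposited scale Rrs1, Nop14 (2.34 and 0.05) and Wdr12 (2.14 and 0.06) had a tumor effect near 0 in exercised mice.

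The fourth comparison, the exercise effect without tumor, concerned healthy lung. Here 0 of the 44 genes were at least 2-fold higher, against 5.28% of all rows, and 2 were at least 2-fold lower, against 4.7%. The 2 were Myc and Polr1b, at -1.96 (-3.21 to -1.05) from 45 and 10 reads. The interval lay above 0 for 21 genes, against 22.5% of all rows, and below 0 for 5, against 21.3%. The other 3 of these 5 were Heatr1 at -0.34 (-0.59 to -0.09), Gar1 at -0.36 (-0.61 to -0.11) and Utp20 at -0.40 (-0.76 to -0.04). The median was 0.23 with 33 genes above and 11 below 0. It was 0.14 with 30 above and 14 below under library totals alone, and 0.12 with 28 above and 16 below under totals without hemoglobin and Rn45s. The largest values above 0 were those of Rrs1 at 0.90 (0.65 to 1.17), Nop58 at 0.83 (0.67 to 0.99), Wdr12 at 0.82, Fbl at 0.77 (0.55 to 1.0) and Gnl3 at 0.74 (0.54 to 0.94). Their tumor effects without exercise were 2.57, 2.60, 2.14, 2.20 and 2.36, a comparison that uses the same library E(-)T(-).

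Some genes abundant in E(-)T(+) also had a few reads in E(+)T(-). Of genes without a read in E(-)T(-), 9 had at least 500 normalized reads in E(-)T(+), and all 9 had reads in E(+)T(-), at a median of 1.47% (0.642 to 2.18) of their E(-)T(+) level. Where these reads came from was not tested. When that median share of each gene's E(-)T(+) level was taken out of E(+)T(-), the exercise effect without tumor of the 44 genes had a median of 0.19 with 31 above and 13 below 0. Myc moved far more, from -2.15 to -4.03, because this share of its E(-)T(+) level nearly equals its whole level in E(+)T(-).

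Related genes outside the set were read from lists, whose counts stand beside the shares of all rows in these comparisons, 20.6% at least 2-fold higher and 25.7% lower with tumor at rest, and 17.7% lower with exercise in tumor-bearing mice. Of 103 other ribosome assembly factors, 47 were at least 2-fold higher and 0 at least 2-fold lower in the resting tumor-bearing lung, and the median was 0.95. The highest were Sdad1 (2.17), Znhit6 (2.16) and Ddx27 (2.16), and the lowest Urb1 (-0.95), Dhx37 (-0.59) and Dimt1 (-0.47). In the exercise effect with tumor the same list had a median of -0.62 with 30 at least 2-fold lower and 0 higher. Of 29 genes of cytosolic ribosomal proteins, 29 were higher in E(-)T(+) than in E(-)T(-) and 22 were past 2-fold, with a median of 1.15, but these genes have near-identical copies and their reads are uncertain. Of 17 other genes of the RNA polymerase I machinery 5 were at least 2-fold higher, a share not far from that of all rows, with a median of 0.32. Cd3eap (1.87), Polr1d (1.78) and Taf1d (1.67) were highest, and Znrd1 (-0.54), Baz2a (-0.51) and Taf1a (-0.19) lowest. The 14 genes of the RNA exosome, which trims ribosomal RNA precursors, had a median of 0.97 with 7 past 2-fold higher, led by Exosc9 (2.44), Dis3 (2.40) and Exosc2 (1.81), and 1 past 2-fold lower, Exosc7 (-1.07).

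The 12 other genes of the Myc network were read beside it. In the tumor effect without exercise 9 were below 0 and 3 above (51.1% of all rows were below 0), and the median was -0.40. In the tumor effect with exercise 3 were below 0 and 9 above (49.8% of all rows were above 0), with a median of 0.48, but under library totals alone 6 were below and 6 above with a median of 0.07. At rest the genes past 2-fold, in shares near those of all rows, were Mxd3 (2.01) and Mnt (1.17), both Max-binding repressors, in the higher direction and Mycl (-2.73), Mxd4 (-1.13) and Mlxip (-1.03) in the lower. Max, the partner of Myc, had levels of 10.28, 10.53, 9.88 and 10.88, lowest in E(-)T(+) where Myc was highest. Mycn had 12, 14, 7 and 7 reads. Rn45s, the entry for the ribosomal RNA precursor itself, had levels of 19.63, 19.43, 18.92 and 19.71, so that the precursor signal was lowest in the library where the processing genes were highest. The libraries were primed on poly(A), which the precursor normally lacks, and its reads are therefore no measure of ribosomal RNA synthesis.

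**Figure D5:**
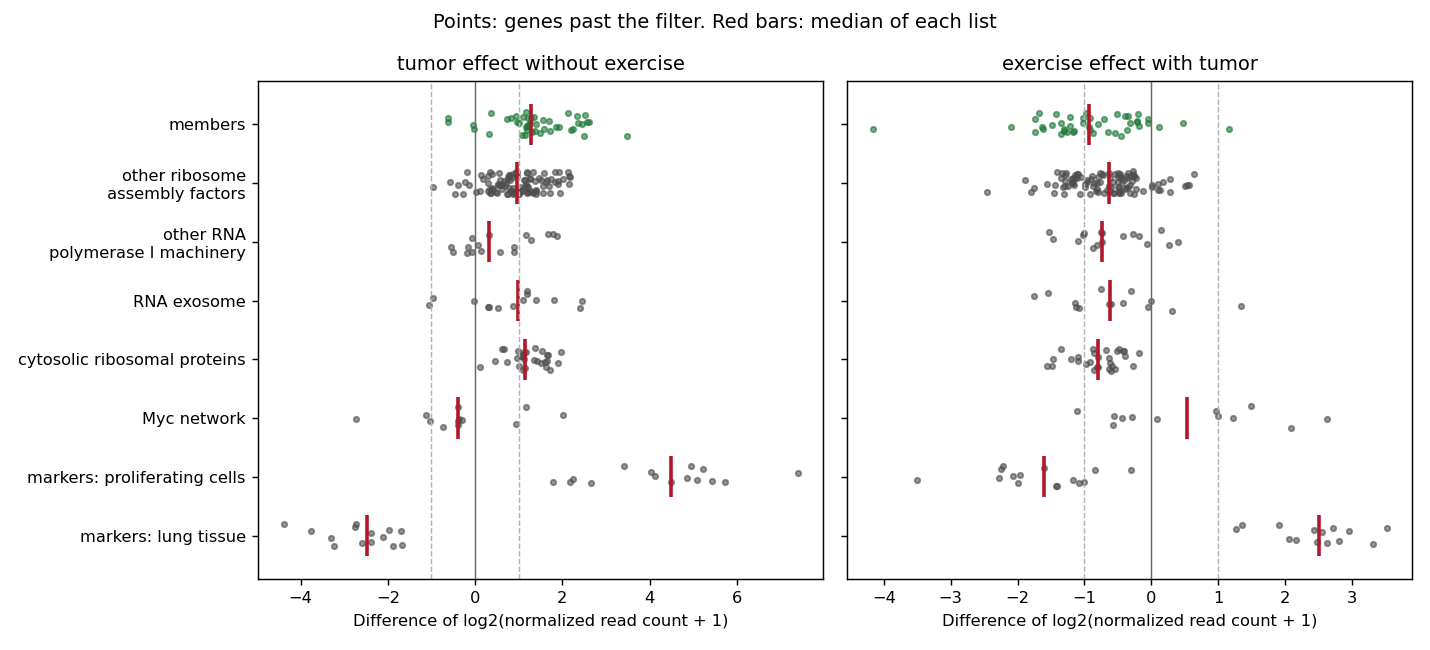
Differences of log2(normalized read count + 1) (horizontal axis) of single genes in the tumor effect without exercise (left) and the exercise effect with tumor (right), for the 44 genes (green) and for 7 other lists (grey), with a red bar at each median. Ribosome assembly lists lie between the proliferation markers (median 4.50 at left) and the lung markers (median -2.49 at left). With libraries scaled by their totals alone the points at right move down, with the median of all rows at -0.59.

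Markers of cell types moved with the same libraries. Proliferation markers, 15 genes, were at least 2-fold higher in E(-)T(+) than in E(-)T(-) for 15 of 15 genes, with a median of 4.50, and 13 were at least 2-fold lower in E(+)T(+) than in E(-)T(+), with a median of -1.61. Their summed normalized counts were 1078, 1497, 15078 and 5193, and Bub1 was at 0 reads in E(-)T(-). Lung markers were at least 2-fold lower in E(-)T(+) than in E(-)T(-) for 14 of 14 genes, with a median of -2.49. All 14 were at least 2-fold higher in E(+)T(+) than in E(-)T(+), against 24.3% of all rows, with a median of 2.51. Their summed normalized counts were 682164, 823920, 152896 and 729719, and none was at 0 reads. Neutrophil markers, 10 genes, summed to 4108, 12505, 12013 and 210479 with none at 0. S100a8 and S100a9 had the most reads of this list in E(+)T(+), 77269 and 75784. From E(-)T(+) to E(+)T(+), 9 of the 10 were at least 2-fold higher (24.3% of all rows). Ltf was lower by that limit, at -1.40 (17.7% of all rows). Erythroid markers, 9 genes in the files, summed to 4299, 4472, 495 and 19735, with Rhag, Ermap and Trim10 at 0 in some libraries. Alas2 had the most reads of that list in E(+)T(+), 13536, and 9 of 9 were at least 2-fold higher there than in E(-)T(+). T cell markers summed to 596, 533, 82.7 and 491, with Cd3g at 0 in E(-)T(+). Of 7 epithelial genes listed for the carcinoma, 5 were at least 2-fold lower in E(-)T(+) than in E(-)T(-), with a median of -1.48 over the list, and the summed normalized counts of the list were 10052, 12083, 6343 and 15742. The 1 gene of this list that was higher was Krt20, an intestinal keratin chosen here after its values were seen, with 0, 46, 2696 and 476 reads. The part of these cell types in the differences of the ribosome biogenesis genes was not tested. In bulk tissue, fewer cells of a type and less RNA per cell cannot be told apart.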

How the data were processed

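Lung RNA was profiled in 4 libraries, 1 per group. The authors extracted RNA with Trizol, made libraries with the QuantSeq 3′ kit, aligned reads with Bowtie2 (build mm10 per the submitters' processing notes), counted them with bedtools and normalized with the quantile method of edgeR. Versions, annotation and strand use are not given in the sources used here. The deposited values are log2(normalized read count + 1) at 3 decimals. Whole reads were recovered by inverting the quantile adjustment (dispersion 0.372, fitted to 12 patterns and 1500 low rows). The recovered reads gave 100% of the values within 0.001, and 94.6% of the values were resolved to 1 read. The step was tested on simulated data.

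Differences of deposited values were read against a 2-fold limit after a filter of a mean of at least 4 normalized counts. Folds are on the log2(value + 1) scale, which understates low genes. Intervals of read ratios are exact (Clopper-Pearson, 95%) and scaled by effective library size. The floor of 3 reads was 0.224 to 0.321 CPM. No test between groups was possible. The genes and lists were chosen with earlier results of these data known. Values in all libraries were given for Myc, the 2 most abundant genes of each role, the 4 largest and 4 smallest tumor effects without exercise, and genes past 2-fold against the median's sign. The result of 1 marker list is not reported here. Other scalings, pseudocounts, filters and limits were tried. Positions and overlaps came from GENCODE M21 (GRCm38, the same assembly as mm10), and promoters from RefSeq (GRCm38.p6). Promoter windows of Rrp12, Fbl, Tcof1, Myc, Rrs1, Bop1 and Npm1 were not used here. Python 3.11.15, numpy 2.4.6, pandas 2.3.3, scipy 1.17.1 and matplotlib 3.10.9 were used.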

Additional observations from a re-analysis of the deposited data

Results flagged for a closer look

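The exercise effect differed in direction between tumor-free and tumor-bearing mice. The median of the 44 genes was 0.23 without tumor and -0.93 with tumor. The 18 genes whose counting intervals lay above 0 without tumor and below 0 with tumor made up 40.9% of the 44, against 8.86% of all filtered rows. Their exercise effects with tumor follow in the order of their roles. Among RNA polymerase I partners they were -1.30 for Nolc1, -1.22 for Mybbp1a, -1.49 for Ncl, -1.22 for Npm1 and -0.21 for Ddx21. Among snoRNP proteins they were -1.02 for Fbl, -1.31 for Nop58 and -0.54 for Nhp2. Among small subunit genes they were -0.87 for Utp15, -0.18 for Wdr43, -1.42 for Wdr75, -1.74 for Nop14 and -1.35 for Ddx10. Among large subunit genes they were -1.25 for Wdr12, -1.61 for Nop16, -1.68 for Rrs1, -0.36 for Rrp1 and -0.92 for Gnl3. Under library totals alone the count was again 18 (9.54% of all rows), with Imp4 in place of Ddx10. With 1 library per group this difference between tumor-free and tumor-bearing mice was not tested.

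The tumor effect differed in direction between resting and exercised mice for 4 genes by their counting intervals, or 9.09%, against 13.0% of all filtered rows. With exercise it was -0.52 for Wdr75, -0.39 for Emg1 and -0.37 for Ddx10, each of which had been above 0 without exercise, and 0.17 for Bysl, which had been below 0 (-0.24 under library totals alone). Under that scaling the intervals were opposed for 13 genes or 29.5%, against 19.0% of all rows, and Bysl was not among them. These differences were not tested either.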

How the results depend on the processing

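No paired analysis was possible because each group had 1 library. The tumor effect without exercise kept its median between 1.14 and 1.40 and its 2-fold count between 31 and 36 under the scalings, pseudocounts and filters tried. With the deposited values 46.2% of all rows were past 2-fold in either direction. A 4-fold limit was passed by 11 genes (21.4% of all rows in either direction). The exercise effect with tumor had 21 genes past 2-fold in either direction (42.0% of all rows) and 2 past 4-fold (16.4% of all rows). Its median ranged from -0.88 to -0.96 apart from scaling by library totals alone, which gave -1.53. The tumor effect with exercise had 3 genes past 2-fold (27.8% of all rows) and a median of 0.41. Under library totals alone its median was -0.003, against -0.41 for all rows, and 1 gene was past 2-fold (33.7% of all rows). With a pseudocount of 16, 1 was past it (16.3% of all rows). A 1.5-fold limit was passed by 10 genes (48.8% of all rows) and a 4-fold limit by 0 (8.64%). The exercise effect without tumor had 2 genes past 2-fold (9.98% of all rows) and medians of 0.12 to 0.23. The count was 1 with a pseudocount of 16 (1.75% of all rows), 1 with at least 4 in each library and 1 with a mean of at least 50. It was 1 at a 4-fold limit (2.66% of all rows), 1 without Myc and 8 at a 1.5-fold limit (22.5%). Leaving out Myc or the 8 overlapping genes was chosen after seeing the data. Library totals alone changed the sign of 3, 2, 2 and 12 genes in the exercise effect without tumor, the tumor effect without exercise, the exercise effect with tumor and the tumor effect with exercise. That scaling moved the genes of a comparison by nearly the same amount, so that genes near 0 changed sign. Totals without hemoglobin and Rn45s changed the sign of 5, 0, 0 and 3 genes in the same comparisons. The median of all rows under those totals was -0.03 for the exercise effect with tumor and -0.08 for the tumor effect with exercise. Under library totals alone it was -0.59 and -0.41. Why the scalings differ was not tested. With 1.47% of the E(-)T(+) level subtracted in E(+)T(-), Myc was at -4.03 for exercise without tumor and 3.36 for tumor with exercise. Depth limits Myc and Polr1b, with 4 and 10 reads in E(+)T(-).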
